A study of Mus musculus with 24 samples.

Results

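The comparison described here is that of the livers of wild type (WT) male mice after a high-fat diet (HFD) with the livers of WT male mice after a normal chow diet (ND). Its members are 6 of the 24 libraries of the series, 3 on HFD and 3 on ND, taken by their titles from the table of raw counts for males in which the other genotype is named Cyp2bnull. All mice were C57BL/6, and the diet, 60% fat in the HFD group, was given for 10 weeks. The study set WT mice beside mice lacking the cytochrome P450 genes Cyp2b9, Cyp2b10 and Cyp2b13, in both sexes and on both diets, to ask how Cyp2b bears on diet-induced obesity. Also used below are males labelled Cyp2b-null (3 libraries on HFD and 2 on ND) and WT females (3 on HFD and 3 on ND). Both have the same strain, tissue and diets and are set beside the main comparison. The labelled-null males also enter the estimate of the spread behind its p-values. Females labelled Cyp2b-null (3 on HFD and 3 on ND) enter only the spread of the fits that hold females. The labels give no age and no hour of tissue collection, and nothing in them says whether each library is a mouse of its own; the p-values below speak for the spread among libraries, which may be technical.

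The liver meets a fat-rich diet with a few well-known gene programmes. Fatty acids activate the nuclear receptor PPARα, which switches on the genes that carry fatty acids into mitochondria and peroxisomes and oxidise them, and in fatty liver PPARγ adds genes of fat uptake and storage. The nuclear receptors CAR and PXR drive the cytochrome P450 and glutathione transferase genes that handle drugs and other foreign compounds, many of which, like the Cyp2b genes, also differ between male and female liver.

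The 3 HFD libraries held 11006950 to 20176050 counts and the 3 ND libraries 9668368 to 12846895 counts. Mitochondrially encoded genes took 4.65 to 7.76% of the counts on HFD, highest in HFD library 2, and 4.67 to 5.7% on ND. Albumin took 7.17 to 7.8% on HFD and 8.23 to 10.33% on ND. All 16 hepatocyte markers passed the filter on low counts, and their summed level, in CPM (counts scaled to a common library total), was 124800 to 146100 CPM on HFD and 156700 to 193200 CPM on ND. On the first principal component, which held 36.1% of the variance of the 6 libraries, HFD libraries 1, 2 and 3 lay at -4.28, -34.28 and -44.03 and the ND libraries at 24.94 to 29.99, so HFD library 1 was the nearest to ND. In bulk liver, fewer cells of a type and less RNA per cell cannot be told apart. One further library, ND library 1 of the labelled-null males, had 32.0% mitochondrial counts and is left out of the shared spread.

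Across 15139 genes tested, 109 differed between HFD and ND at an adjusted p below 0.05 (edgeR's quasi-likelihood test, Benjamini-Hochberg adjustment over all genes tested), which is 0.72%. Of these, 66 (0.436%) were higher on HFD and 43 (0.284%) lower on HFD, and such genes are called below. At an unadjusted p below 0.05 there were 2600 genes (17.2%), 9.64% of all genes being higher and 7.54% lower. In 3463 genes (22.9%) the libraries of the diets did not overlap, with HFD higher in 12.8% and ND higher in 10.1% of all genes tested. The median log2 difference over all genes was 0.02, and 51.9% of genes lay above 0. Called genes had a median absolute log2 difference of 1.21, and the plot of all genes sets the calls against the level of expression.

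**Figure D1:**
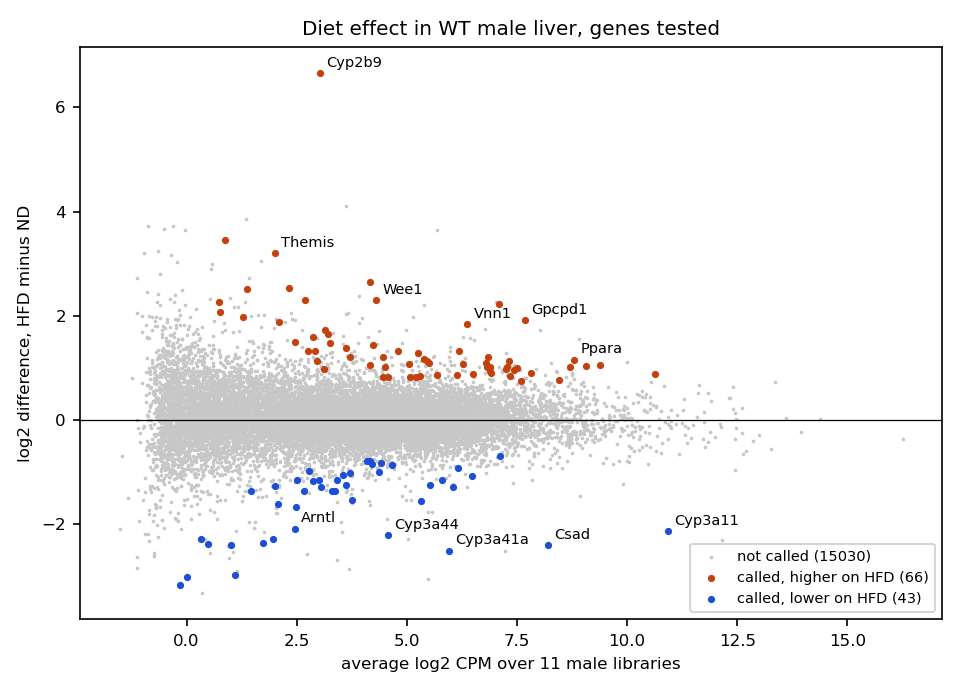
Each point is 1 of 15139 genes, with the average log2 CPM over the 11 male libraries on the horizontal axis and the log2 difference, HFD minus ND in WT males, on the vertical axis. The 66 called genes that were higher on HFD are red and the 43 that were lower are blue; Cyp2b9 stands highest at 6.66, and Cyp3a11 is the called gene that fell at the highest expression.

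The number of calls depended on single libraries, although none of the 109 genes changed direction when any 1 of the 6 was left out. Calls numbered 573 without HFD library 1, 87 without HFD library 2 and 8 without HFD library 3, and 27, 2 and 42 without ND libraries 1, 2 and 3. Csad and Cyp3a41a remained called in all 6 of these fits. Vnn1, Cyp3a44, Adgrv1 and Wee1 remained called in 5 of 6, falling short only without ND library 2, where their adjusted p was 0.0533 to 0.0606. Ppara, Srgap3, Themis and the predicted gene Gm36419 remained called in 4 of 6, and the other 99 in 3 or fewer. With the replicate number as a block, 167 genes were called (1.1%, with 0.634% higher and 0.469% lower), 102 of them among the 109. DESeq2 called 540 genes (3.57%), 107 of them among the 109. A fit of the 6 WT libraries alone called 21 genes.

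The 3 Cyp2b genes named by the study lie in a cluster on chromosome 7 and did not move together in WT males. Cyp2b9 (chr7:26173411-26210661 of GRCm38, plus strand, protein coding), a P450 known for its female-biased expression in mouse liver, had 26.9, 4.71 and 36.5 CPM in HFD libraries, against 0.0872, 0.218 and 0.345 CPM in ND libraries, where it rested on 1, 2 and 4 reads. Every HFD library was above every ND library, and HFD library 2 was the lowest of its group. The log2 difference of 6.66 (95% interval 4.13 to 9.20, adjusted p = 0.0381, edgeR) is therefore wide. Cyp2b10 (chr7:25897620-25926624, plus strand), the P450 best known as the target of CAR, had 0.532, 1.47 and 0.64 CPM in HFD libraries, against 8.46, 3.71 and 2.59 CPM in ND libraries. Its groups did not overlap, but its log2 difference of -2.55 (95% interval -3.94 to -1.16) was not called (adjusted p = 0.0896). Cyp2b13 (chr7:26061497-26096197, plus strand) averaged 3.87 ± 0.0637 CPM on HFD and 2.75 ± 0.696 CPM on ND (SD, n = 3 each), and was not called (adjusted p = 0.389). Reads shared by close paralogues of the Cyp2b, Cyp3a and glutathione transferase families may have been assigned to either copy or discarded in counting, which makes the values of single members uncertain.

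The steepest fall in relation to its spread was that of Csad, the decarboxylase that makes hypotaurine on the way to taurine, which the liver joins to bile acids. Csad (chr15:102176999-102204724, minus strand, protein coding) had 115, 108 and 114 CPM in HFD libraries, against 713, 607 and 463 CPM in ND libraries. The HFD libraries were nearly level with each other and every ND library lay far above them. Its log2 difference was -2.40 ± 0.20 (SE), a level on HFD 0.189 times that on ND (adjusted p = 0.000152). It was the only called gene among 48 tested genes of amino acid catabolism and the urea cycle, against 0.284% of all genes called lower. The median of that list was -0.15. At an unadjusted p below 0.05, 11 members were lower and 6 higher, against 7.54% and 9.64% of all genes. The replicate block called 2 members lower and DESeq2 3, against 0.469% and 1.45%, and neither called any higher. Cdo1, which acts one step before Csad and was picked out after its values were seen, averaged 1444 ± 256 CPM on HFD and 1710 ± 148 CPM on ND and was not called (adjusted p = 0.55).

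A group of 3 neighbouring Cyp3a genes on chromosome 5 fell on HFD by similar amounts. Cyp3a enzymes oxidise steroids, bile acids and many drugs, and Cyp3a11 is the main member in male mouse liver. Cyp3a11 (chr5:145854426-145879964, minus strand) had 658, 1433 and 615 CPM in HFD libraries, against 4758, 3658 and 3528 CPM in ND libraries. All 3 HFD libraries were below the ND libraries, with HFD library 2 the closest, and the log2 difference was -2.14 ± 0.38 (adjusted p = 0.0288). Cyp3a41a (chr5:145694049-145720136, minus strand), known for its female-biased expression, had 18.7, 34.0 and 19.3 CPM on HFD, against 159.7, 122 and 128 CPM on ND (log2 difference -2.51, adjusted p = 0.00314). Cyp3a44 (chr5:145773983-145805874, minus strand), also female-biased, had 9.5, 15.4 and 6.91 CPM on HFD, against 57.8, 43.7 and 44.5 CPM on ND (log2 difference -2.22, adjusted p = 0.015). HFD library 2 was the highest of its group in all 3 genes. Other Cyp3a members, named after their values were seen, did not fall alike: Cyp3a13 had a log2 difference of 0.40, Cyp3a25 of 0.16 and Cyp3a59 of -0.71, and none of these was called.

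**Figure D2:**
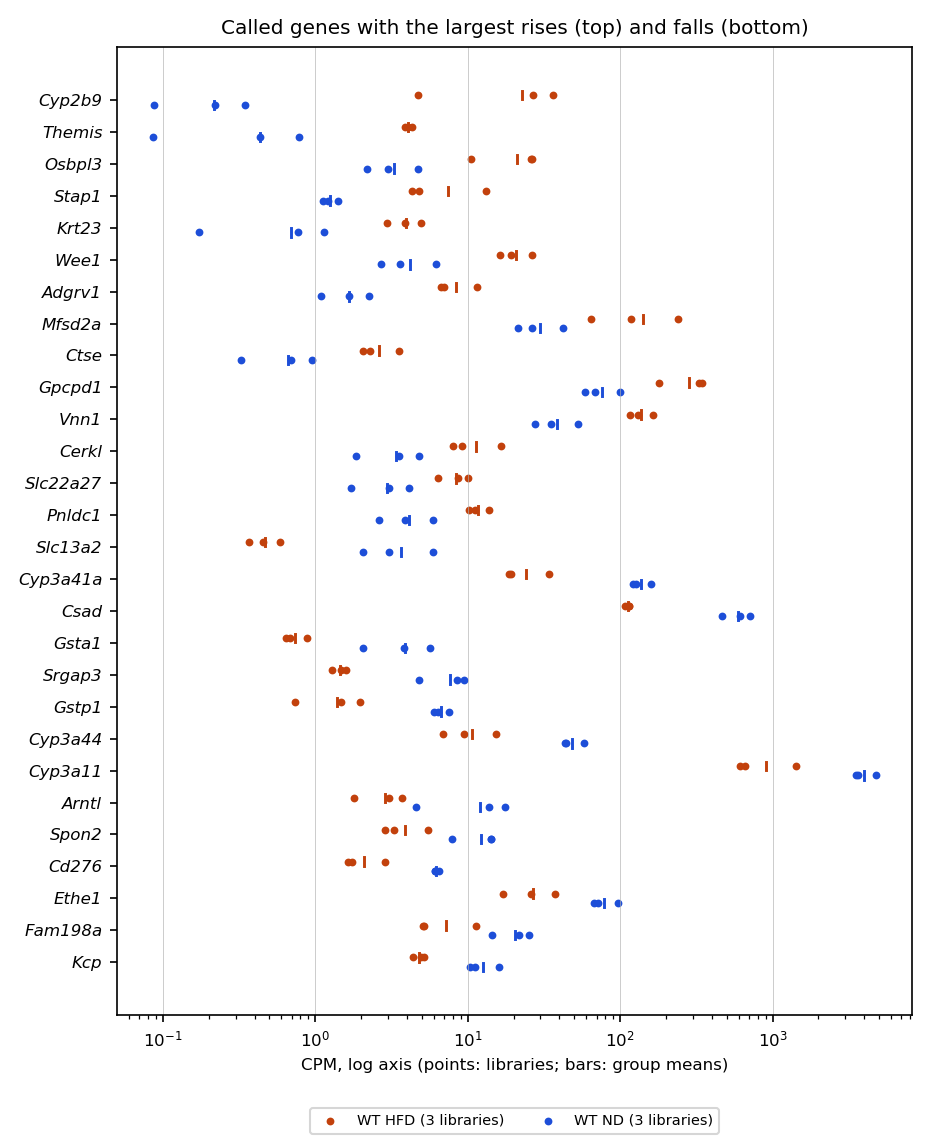
CPM on a log axis of the 14 named genes with the largest called rises (upper rows) and the 14 with the largest called falls (lower rows); red points are the 3 WT HFD libraries, blue points the 3 WT ND libraries, and short bars the group means. In each of the 28 genes the libraries of the diets do not overlap, a condition of being shown; the Csad HFD libraries lie at 108 to 115 CPM, below ND libraries at 463 to 713 CPM.

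Among the 14 largest rises were genes of lipid handling. Mfsd2a, a transporter that brings lysophosphatidylcholine with polyunsaturated fatty acids into cells, had 64.7, 238 and 119 CPM in HFD libraries, against 26.3, 21.4 and 42.4 CPM in ND libraries (log2 difference 2.22, adjusted p = 0.0419). The HFD libraries were spread widely, HFD library 2 being highest, and all lay above the ND libraries. Osbpl3, an oxysterol-binding protein family member, averaged 21.0 ± 9.1 CPM on HFD and 3.31 ± 1.29 CPM on ND (log2 difference 2.65). Gpcpd1, which splits glycerophosphocholine, had 179, 328 and 347 CPM on HFD, against 58.4, 68.3 and 99.98 CPM on ND (log2 difference 1.91, adjusted p = 0.0288). Chka, the kinase that begins phosphatidylcholine synthesis from choline, fell to 33.5 ± 4.72 CPM on HFD, against 80.0 ± 13.4 CPM on ND (log2 difference -1.26, adjusted p = 0.0236). Chka was picked out after its values were seen.

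Several other rises were in genes of low level or of roles outside lipid metabolism. Themis, known for its part in T cell receptor signalling, had 3.88, 4.32 and 4.07 CPM on HFD, against 0.785, 0.437 and 0.0863 CPM on ND (log2 difference 3.20, adjusted p = 0.0236), while 12 tested lymphocyte markers had a median of 0.13 and no call. Krt23, a keratin, averaged 3.92 ± 0.999 CPM on HFD and 0.691 ± 0.485 CPM on ND (log2 difference 2.52). Adgrv1, an adhesion G-protein-coupled receptor best known from the inner ear, had a log2 difference of 2.30 (adjusted p = 0.00829). Stap1, Ctse, Cerkl, Slc22a27 and Pnldc1 rose on HFD to levels 5.81, 3.92, 3.30, 2.84 and 2.80 times those on ND. Among the largest falls, Slc13a2, a citrate and dicarboxylate transporter, averaged 0.470 CPM on HFD and 3.68 CPM on ND (log2 difference -2.98), and its call was lost in all 6 fits that left out 1 library. Ethe1, a mitochondrial enzyme of sulfide oxidation, had 37.3, 25.9 and 16.9 CPM on HFD, against 96.6, 72.0 and 67.1 CPM on ND (log2 difference -1.56, adjusted p = 0.0276). Srgap3, Spon2, Cd276, Fam198a and Kcp had log2 differences of -2.37, -1.67, -1.61, -1.54 and -1.38.

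The receptor gene Ppara itself and 3 of the PPARα and fatty acid oxidation genes were called higher on HFD. Of 55 tested members of that list 4 were called higher (against 0.436% of all genes) and no member was called lower. At an unadjusted p below 0.05, 24 were higher and 1 lower, against 9.64% and 7.54%, and 45 lay above 0, against 51.9%. The median was 0.52, beside 0.02 over all genes, and stayed between 0.42 and 0.61 when any 1 library was left out. Ppara (chr15:85734983-85802819, plus strand) had 556, 454 and 573 CPM in HFD libraries, against 245, 243 and 223 CPM in ND libraries (log2 difference 1.16 ± 0.17, adjusted p = 0.015). The groups were well apart and the ND libraries nearly level. Vnn1, a pantetheinase and classical PPARα target, had 132, 116 and 165 CPM on HFD, against 52.7, 27.8 and 35.2 CPM on ND (log2 difference 1.84 ± 0.22, adjusted p = 0.00606). Cpt1a (chr19:3322334-3385733, plus strand), the enzyme that admits long-chain fatty acids to mitochondria, had 634, 687 and 697 CPM on HFD, against 312, 300.2 and 369.5 CPM on ND (log2 difference 1.04 ± 0.16, adjusted p = 0.0206). Aldh3a2, which oxidises fatty aldehydes, had 902, 826 and 840.3 CPM on HFD, against 533, 375 and 328 CPM on ND (log2 difference 1.06, adjusted p = 0.0288). No HFD library of these 4 genes overlapped an ND library.

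Further members had intervals above 0 without a call, as the plot of the list shows. Fgf21, the fasting hormone, had 6.99, 2.45 and 4.07 CPM on HFD, against 2.01, 0.655 and 0.691 CPM on ND (adjusted p = 0.175). The male-biased Cyp4a12b was the 1 member that was lower at an unadjusted p below 0.05 (log2 difference -0.94, adjusted p = 0.22). Cyp4a12b was picked out after its values were seen. DESeq2 called 21 members higher and none lower, against 2.11% of all genes called higher by that tool, and the replicate block 7 higher, against 0.634%.

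**Figure D3:**
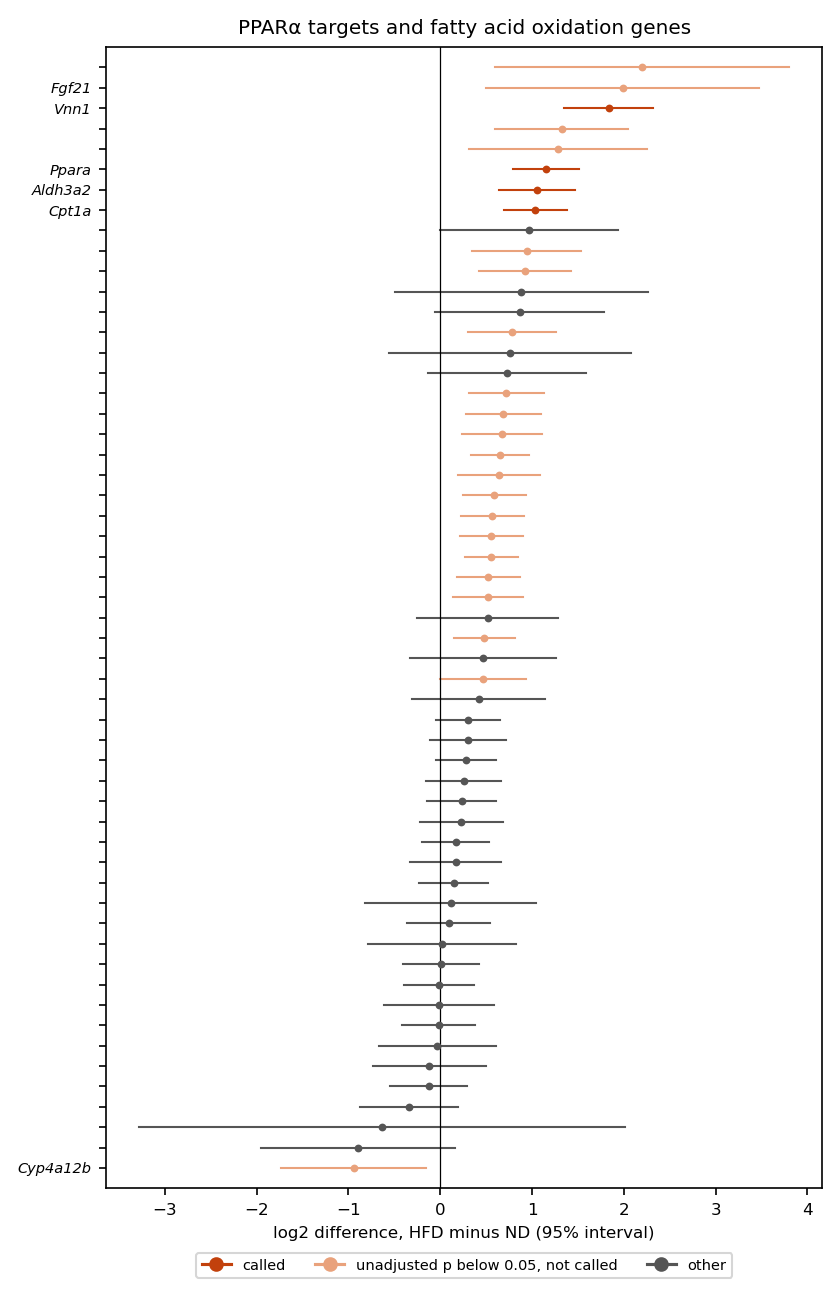
Log2 difference, HFD minus ND in WT males, with its 95% interval for each of the 55 tested PPARα targets and fatty acid oxidation genes, ordered by size, with names at the 6 members described in the text. The 4 called genes are dark red, genes with an unadjusted p below 0.05 and no call are light red, and the rest are grey; 45 of the 55 points lie right of 0.

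PPARγ targets of fatty liver had the highest median of the pathway lists, 0.92 over 14 tested members. Of these, 3 were called higher, against 0.436% of all genes, and none lower; 9 were higher at an unadjusted p below 0.05, against 9.64%, and 13 lay above 0, against 51.9%. Gk, the glycerol kinase, had 124, 174 and 139.8 CPM in HFD libraries, against 81.0, 80.3 and 73.1 CPM in ND libraries (log2 difference 0.90, adjusted p = 0.0288). Fgf1, a growth factor with metabolic actions, averaged 174 ± 38.9 CPM on HFD and 86.3 ± 6.50 CPM on ND (log2 difference 1.01, adjusted p = 0.0325). Fabp2, a fatty acid binding protein best known from intestine, averaged 153 ± 46.2 CPM on HFD and 72.1 ± 12.1 CPM on ND (log2 difference 1.08, adjusted p = 0.048). Each of these 3 calls held in only 1 or 2 of the 6 fits that left out a library. Cd36, the fatty acid transporter, averaged 84.4 ± 15.7 CPM on HFD and 32.0 ± 12.1 CPM on ND without a call (adjusted p = 0.0789).

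Cfd, the complement factor adipsin, had 18.6, 26.5 and 16.1 CPM on HFD, against 1.75, 0.874 and 0.863 CPM on ND (log2 difference 4.10, 95% interval 2.12 to 6.08, adjusted p = 0.0766). It is also a marker of fat cells, and the summed level of the 3 tested adipocyte markers (Cfd, Lipe and Fabp4) was 43.4 to 57.8 CPM on HFD and 20.3 to 23.1 CPM on ND. That sum includes Cfd itself and is not separate from the Cfd values. Lipe, like Cfd, was higher in every HFD library than in every ND library. At an unadjusted p below 0.05, 2 of the 3 were higher and none lower, against 9.64% and 7.54% of all genes. Fabp4 overlapped between the diets, at 5.62, 10.5 and 6.49 CPM on HFD and 6.54, 5.13 and 5.87 CPM on ND. Below the filter on low counts were 7 of the 10 adipocyte markers, among them Adipoq, Plin1 and Lep. The part of fat cells in the Cfd values was not tested.

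Targets of CAR and PXR divided. Among 46 tested, 1 was called higher (Cyp2b9), against 0.436% of all genes. Called lower were 5 (Cyp3a41a, Gsta1, Gstp1, Cyp3a44 and Cyp3a11), against 0.284% of all genes. At an unadjusted p below 0.05, 8 were higher and 15 lower, against 9.64% and 7.54% of all genes, and the median was -0.03. The replicate block called 2 higher and 9 lower, against 0.634% and 0.469%. DESeq2 called 4 higher and 11 lower, against 2.11% and 1.45%. Beside the Cyp3a genes, the members called lower were 2 glutathione transferases, which join glutathione to reactive compounds. Gstp1 had 1.98, 1.47 and 0.732 CPM in HFD libraries, against 7.5, 6.01 and 6.39 CPM in ND libraries (log2 difference -2.30, adjusted p = 0.0206). Gsta1 had 0.684, 0.883 and 0.64 CPM on HFD, against 5.67, 3.82 and 2.07 CPM on ND (log2 difference -2.40, adjusted p = 0.0236). Both genes were low, and neither overlapped between diets. Gstm3 and Gstm1, picked out after their values were seen, averaged 14.5 and 692 CPM on HFD and 70.5 and 1617 CPM on ND, with adjusted p values of 0.0517 and 0.0528. Upward, Nr1i3, which encodes CAR, had 490.4, 197 and 833 CPM on HFD, against 206, 134 and 177 CPM on ND, with overlap at HFD library 2 and no call (adjusted p = 0.135). Nr1i2, which encodes PXR, averaged 109 CPM on HFD and 92.3 CPM on ND (adjusted p = 0.644).

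NRF2 targets, a list of antioxidant genes that holds the same glutathione transferases, lay mostly below 0. Of 26 tested, none was called higher and 2 were called lower (Gsta1 and Gstp1), against 0.284% of all genes called lower. At an unadjusted p below 0.05, 8 were lower and none higher, against 7.54% and 9.64%. Below 0 lay 22 members, and the median was -0.43. DESeq2 called 6 members lower and none higher, against 1.45% of all genes called lower by that tool, and the replicate block 5 lower and none higher, against 0.469%.

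Among the clock genes 3 were called in WT males, in opposite directions. Arntl, which encodes BMAL1, the activating partner of CLOCK, fell, while Nr1d2, which encodes the repressor REV-ERBβ, and Wee1, a cell cycle kinase driven by the clock, rose. Of 27 tested members 2 were called higher and 1 lower, against 0.436% and 0.284% of all genes; 12 were higher and 2 lower at an unadjusted p below 0.05, against 9.64% and 7.54%, and the median was 0.68. The replicate block called 4 higher and 1 lower, against 0.634% and 0.469% of all genes. DESeq2 called 8 higher and 1 lower, against 2.11% and 1.45%. When 1 library was left out, Wee1 remained called in 5 of 6 fits, Arntl in 2 and Nr1d2 in 1. Arntl (chr7:113207465-113314126, plus strand) had 3.73, 3.04 and 1.78 CPM in HFD libraries, against 17.5, 13.8 and 4.58 CPM in ND libraries (log2 difference -2.09 ± 0.42, adjusted p = 0.0416). ND library 3 was the lowest of its group and still above all HFD libraries. Wee1 (chr7:110122046-110143286, plus strand) had 16.2, 19.3 and 26.6 CPM on HFD, against 2.71, 3.6 and 6.22 CPM on ND (log2 difference 2.31 ± 0.29, adjusted p = 0.00701). Nr1d2 had 115, 173 and 144 CPM on HFD, against 70.6, 68.4 and 85.9 CPM on ND (log2 difference 0.94, adjusted p = 0.0288). In all 3 genes ND library 3 was the ND library nearest to the HFD libraries.

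Other clock genes were not called. Per3, Per2 and Tef, picked out after their values were seen, averaged 17.0, 76.0 and 303 CPM on HFD and 5.69, 39.2 and 166 CPM on ND, each with no overlap between the diets. Dbp, a clock output factor, had 164, 135 and 218 CPM on HFD, against 34.7, 77.5 and 145 CPM on ND, with ND library 3 above HFD library 2. Nr1d1, which encodes REV-ERBα, had 186, 75.1 and 138 CPM on HFD, against 202, 157 and 154 CPM on ND, and its groups overlapped. The labels do not give the hour at which any liver was taken.

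**Figure D4:**
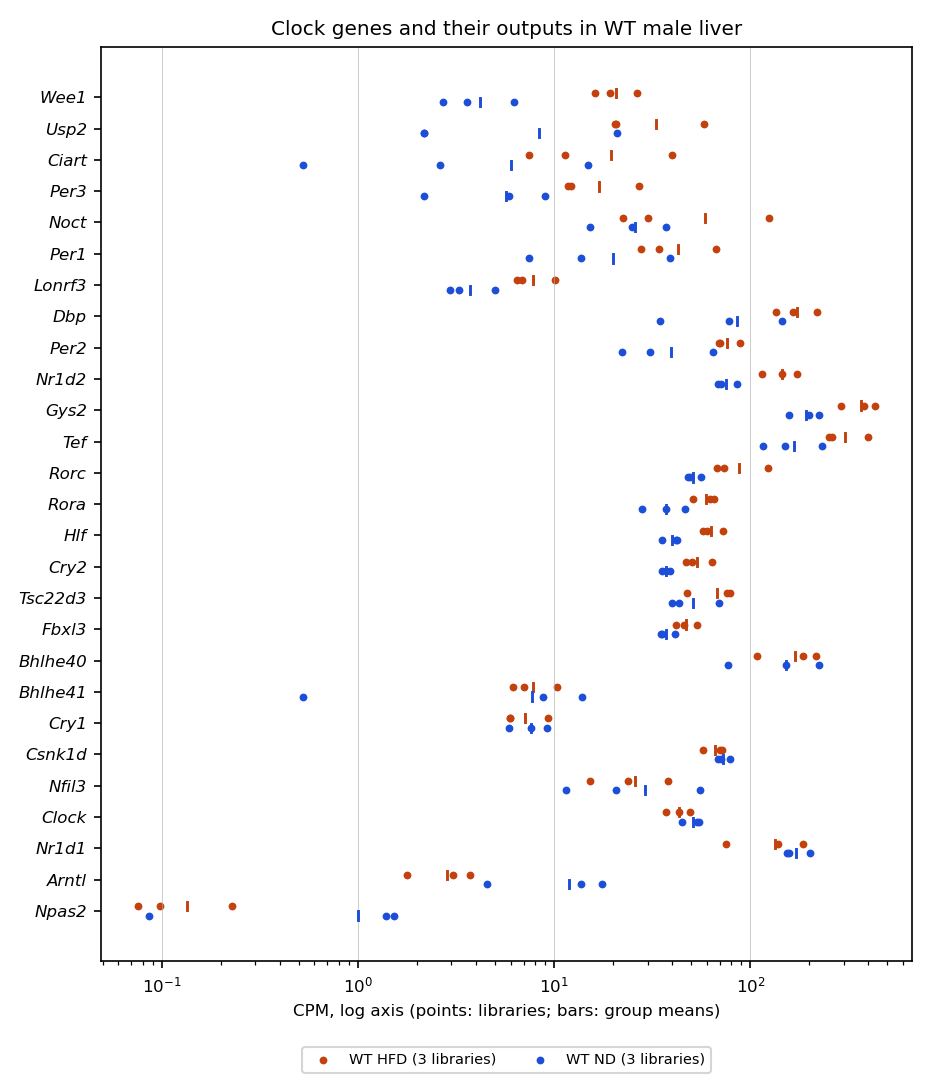
CPM on a log axis of the 27 tested clock genes and outputs, ordered by log2 difference from the highest at the top, with red points for the 3 WT HFD libraries, blue points for the 3 WT ND libraries and short bars for group means. Wee1, Nr1d2 and Arntl were called; Arntl lies at 1.78 to 3.73 CPM on HFD and 4.58 to 17.5 CPM on ND.

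Because BMAL1 and CLOCK bind the E-box CACGTG, promoters of the genes called were searched for these letters (the sequence reads the same on both strands) in 250 bases before and 50 bases after the start. Of 58 RefSeq promoters of genes called higher, 17.2% held it, as did 9.76% of 41 promoters of genes called lower, 9.68% of 13444 promoters of all genes tested and 7.15% of all 32851 promoters in the table. The genes called higher with the letters were Abca8a, Aldh3a2, Arl5b, Bnip3, Fnip1, Gk, Krt23, Nceh1, Pdpr and Slc16a12. The 3 of these that are described above are shown in full, from RefSeq on GRCm38.p6, with the E-box in capitals; the motif begins 30, 58 and 169 bases before the start in Aldh3a2, Gk and Krt23.
Aldh3a2 promoter (chr11:61267137-61267436, minus strand): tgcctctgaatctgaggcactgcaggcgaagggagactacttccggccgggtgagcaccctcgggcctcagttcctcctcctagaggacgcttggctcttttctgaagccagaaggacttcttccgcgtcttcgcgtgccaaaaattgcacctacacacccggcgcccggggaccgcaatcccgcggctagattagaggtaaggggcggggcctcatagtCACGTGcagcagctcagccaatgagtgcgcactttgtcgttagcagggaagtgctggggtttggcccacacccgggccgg
Gk promoter (chrX:85776770-85777069, minus strand): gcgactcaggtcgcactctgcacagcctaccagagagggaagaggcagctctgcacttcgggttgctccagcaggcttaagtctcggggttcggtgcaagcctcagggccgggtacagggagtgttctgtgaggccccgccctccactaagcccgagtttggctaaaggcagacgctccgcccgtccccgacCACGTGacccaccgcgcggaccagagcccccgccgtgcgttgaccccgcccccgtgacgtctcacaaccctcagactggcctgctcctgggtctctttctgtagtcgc
Krt23 promoter (chr11:99493071-99493370, minus strand): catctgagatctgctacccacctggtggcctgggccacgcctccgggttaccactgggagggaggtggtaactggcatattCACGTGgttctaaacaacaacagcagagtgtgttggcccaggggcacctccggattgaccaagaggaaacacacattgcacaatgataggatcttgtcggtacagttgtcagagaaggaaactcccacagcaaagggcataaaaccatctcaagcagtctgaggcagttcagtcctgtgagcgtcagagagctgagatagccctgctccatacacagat
The match describes these letters alone. The D-box TTATGTAA, the element of the clock outputs Dbp, Tef and Hlf, was searched on both strands as well. It stood in 3.45% of promoters of genes called higher, 0% of those called lower and 0.64% of those of genes tested. The 3.45% is only 2 of 58 promoters, those of Acsm3 and Slc16a12. Searched on both strands too were 3 other motifs. The PPAR element, AGGTCA repeated in the same direction with any 1 base between, was in 0% of promoters of genes called higher, 0% of those called lower and 0.0595% of those of genes tested. Only 8 of 13444 promoters of genes tested held it. The 58 promoters of genes called higher and 41 of genes called lower are too few to show a lack of it. The sterol element core CACCCCAC was in 5.17%, 7.32% and 3.2% of the same sets, and the STAT5 element TTCNNNGAA in 8.62%, 4.88% and 7.28%. In genes called higher and lower these shares rest on 3 and 3 promoters for the sterol core and 5 and 2 for the STAT5 element. The 3 sterol promoters of genes called higher belong to 2 genes.

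Calls among genes with sex-biased expression in mouse liver ran in both directions. Among 35 tested female-biased genes, 2 were called higher (Cyp2b9 and Slc22a27) and 2 lower (Cyp3a41a and Cyp3a44), against 0.436% and 0.284% of all genes. At an unadjusted p below 0.05, 14 were higher and 6 lower, against 9.64% and 7.54%, and the median was 0.50. The replicate block called 4 higher and 2 lower, against 0.634% and 0.469%. DESeq2 called 10 higher and 3 lower, against 2.11% and 1.45%. Slc22a27, an organic anion transporter family member, had 6.38, 8.63 and 10.1 CPM in HFD libraries, against 4.1, 3.06 and 1.73 CPM in ND libraries (a level on HFD 2.84 times that on ND, adjusted p = 0.0367). Fmo2, a flavin monooxygenase picked out after its values were seen, averaged 47.4 ± 27.6 CPM on HFD and 14.4 ± 4.94 CPM on ND without a call (adjusted p = 0.0685). Of 44 tested male-biased genes of the growth hormone and STAT5 list none was called higher. Called lower were 2 (Gstp1 and Cspg5), against 0.284% of all genes. At an unadjusted p below 0.05, 9 were lower and 2 higher, against 7.54% and 9.64%, and the median was -0.19. The replicate block called 4 lower and DESeq2 5 lower, against 0.469% and 1.45% of all genes, and neither called any higher. Cspg5, a proteoglycan gene, was very low in both groups, at 0.228, 0.393 and 0.137 CPM on HFD and 2.88, 1.42 and 1.47 CPM on ND (log2 difference -3.03, adjusted p = 0.0351). Elovl3, a male-biased fatty acid elongase, had 65.2, 108 and 33.1 CPM on HFD, against 498, 489.6 and 195 CPM on ND. Its log2 difference of -2.52 was not called (adjusted p = 0.0618), and was called with the replicate block (-2.56, adjusted p = 0.0066). Set beside these levels, Cyp2b9 had 304 to 513 CPM on HFD and 393 to 499.6 CPM on ND in WT females, in libraries made with another kit, with a log2 difference of -0.20 that was not called. The diet effect on Cyp2b9 in WT females minus that in WT males was -6.80 (95% interval -9.09 to -4.51) and was not called either (adjusted p = 0.109).

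Genes that make fat gave no call in either direction by edgeR without the block. Over all genes, 9.64% were higher and 7.54% lower at an unadjusted p below 0.05. Called lower were 1.45% of all genes by DESeq2 and 0.469% with the replicate block. Of 29 tested genes of fatty acid and triglyceride synthesis none was called by edgeR without the block, 2 were higher and 1 lower at an unadjusted p below 0.05, DESeq2 called 1 lower, the replicate block called 1 lower (Elovl3, above), and the median was -0.16. The HFD libraries were far apart from each other in its main members, picked out after their values were seen. Scd1, the stearoyl-CoA desaturase, had 1480, 10420 and 2368 CPM in HFD libraries, against 9461, 10250 and 8004 CPM in ND libraries. Fasn, the fatty acid synthase, had 342, 1332 and 222 CPM on HFD, against 1158, 1070 and 1059 CPM on ND. In both, HFD library 2 was above the ND libraries and HFD libraries 1 and 3 were far below them. Acly, the ATP citrate lyase, had the same order, at 200.2, 746 and 136 CPM on HFD and 538, 506 and 396 CPM on ND. Cholesterol synthesis genes also had no call among 28 tested, with 4 lower and none higher at an unadjusted p below 0.05, 1 called lower by DESeq2, 22 below 0 and a median of -0.19; Scap, the escort protein of SREBP, averaged 103 ± 10.4 CPM on HFD and 144 ± 6.4 CPM on ND (adjusted p = 0.111).

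Polyunsaturated fatty acid metabolism, which the study's title names, had no call by edgeR among 43 tested genes. At an unadjusted p below 0.05, 2 were higher and 8 lower, against 9.64% and 7.54% of all genes. DESeq2 called 1 higher and 3 lower, against 2.11% and 1.45%. The median of the list was 0.05. Its smallest p was that of Cyp2c55, a P450 that oxidises arachidonic acid, with 2.2, 5.0 and 0.503 CPM in HFD libraries, against 14.3, 15.9 and 12.7 CPM in ND libraries. The diets did not overlap, and the log2 difference of -2.58 was not called (adjusted p = 0.0901) but was called with the replicate block (-2.84, adjusted p = 0.0473).

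Genes of fat storage and of sterol and bile acid transport had few calls by edgeR. Lipid droplet coat and lipolysis genes had no call by edgeR among 23 tested, and a median of 0.17. At an unadjusted p below 0.05, 8 were higher and 1 lower, against 9.64% and 7.54% of all genes. DESeq2 called 5 higher, against 2.11%, and none lower. Plin2, the main droplet coat protein of hepatocytes, averaged 456 CPM on HFD and 406 CPM on ND and overlapped. Abcg8, a subunit of the pump that moves sterols into bile, had 167, 207 and 211 CPM in HFD libraries, against 117, 92.9 and 86.0 CPM in ND libraries (log2 difference 0.98, adjusted p = 0.0276). Its partner Abcg5 averaged 181 ± 34.8 CPM on HFD and 88.5 ± 12.4 CPM on ND without a call (adjusted p = 0.0517). Slco1b2, a sinusoidal carrier of bile acids and drugs, had 1880, 1910 and 2076 CPM on HFD, against 965, 1095 and 1121 CPM on ND (log2 difference 0.88, adjusted p = 0.0339). It was the only call by edgeR among 27 genes of bile acid synthesis and transport (median 0.04), against 0.436% of all genes called higher. At an unadjusted p below 0.05, 5 of them were higher and 2 lower, against 9.64% and 7.54%. DESeq2 called 2 higher and 1 lower, against 2.11% and 1.45%. Cyp7a1, the rate-limiting enzyme of bile acid synthesis, averaged 250.1 ± 39.7 CPM on HFD and 225 ± 80.8 CPM on ND. Foxo1, the transcription factor that insulin restrains, had 33.7, 37.8 and 42.4 CPM on HFD, against 22.1, 21.1 and 21.0 CPM on ND (log2 difference 0.83, adjusted p = 0.0288). It was the only call by edgeR among 27 genes of insulin signalling (median 0.11), against 0.436% of all genes called higher. At an unadjusted p below 0.05, 4 of them were higher and 2 lower, against 9.64% and 7.54%. DESeq2 called 3 higher, against 2.11%, and none lower.

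Few markers of other liver cells passed the test. Neither Kupffer cell and macrophage markers (21 tested, median 0.12) nor endothelial markers (15 tested, median 0.11) nor stellate cell and matrix genes (27 tested, median -0.10) had a call by edgeR; at an unadjusted p below 0.05 the 3 lists had 0, 1 and 2 members higher and none lower, and DESeq2 called 0, 1 and 0 members. The summed Kupffer cell level was 726 to 979 CPM on HFD and 815 to 977 CPM on ND. Cd9, a tetraspanin listed with lipid-associated macrophages and also made by other cells, fell to 6.96 ± 2.71 CPM on HFD, against 17.6 ± 2.60 CPM on ND (log2 difference -1.36, adjusted p = 0.0295), and the median of the 10 tested members of its list was 0.06. Interferon response genes had 1 call each way among 45 tested, against 0.436% higher and 0.284% lower of all genes, and a median of 0.21. At an unadjusted p below 0.05, 11 were higher and 2 lower, against 9.64% and 7.54%. DESeq2 called 4 higher and 1 lower, against 2.11% and 1.45%. The replicate block called none higher and 1 lower, against 0.634% and 0.469%. Rsad2, an antiviral enzyme, averaged 11.3 ± 1.67 CPM on HFD and 5.67 ± 0.593 CPM on ND (log2 difference 0.98, adjusted p = 0.0495; 0.0643 with the replicate block). Bst2, which tethers virus particles, fell to 65.2 ± 11.6 CPM on HFD, against 137 ± 21.9 CPM on ND (log2 difference -1.08, adjusted p = 0.0246).

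Translation and respiration genes lay mostly below 0, without a call by edgeR. DESeq2 called 1.45% of all genes lower. Of 51 tested cytosolic ribosomal protein genes, 48 lay below 0 and 34 were lower and none higher at an unadjusted p below 0.05, beside 7.54% of all genes lower; DESeq2 called 3 lower, and the median was -0.52. Rpsa, a protein of the small ribosomal subunit, had 137, 100.2 and 75.8 CPM in HFD libraries, against 159.9, 196 and 206 CPM in ND libraries (adjusted p = 0.103). Nuclear genes of the respiratory chain had 42 of 47 members below 0, 20 lower and none higher at an unadjusted p below 0.05, no call by DESeq2 and a median of -0.38. The 13 mitochondrially encoded genes had 12 members above 0 and a median of 0.46, which came to 0.07 in the lowest fit that left out a library. Their summed level was 42900 to 83790 CPM on HFD and 49350 to 63230 CPM on ND, which overlap.

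The diet difference also varied with transcript length. Over 13835 tested genes (91.4%) with a length in GENCODE M21, taken as the longest transcript, the median log2 difference in WT males was -0.15, -0.06, 0.01, 0.08 and 0.15 in 5 groups of the genes of about equal size, from shortest to longest. Spearman's rho across genes was 0.24, where genes share libraries and are not replicates. Called genes followed the same order, with 7, 11, 12, 17 and 18 called higher and 9, 10, 10, 6 and 6 called lower in those groups. By library, the shortest and longest groups lay at -0.04 and 0.04 in HFD library 1, -0.14 and 0.19 in HFD library 2, and -0.26 and 0.23 in HFD library 3, each against the ND mean. In labelled-null males the shortest and longest groups lay at -0.07 and 0.04 (rho 0.138), and in WT females they lay the other way, at 0.04 and -0.06 (rho -0.105). The part of transcript length in the ribosomal and respiratory values, whose genes are short, was not tested.

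**Figure D5:**
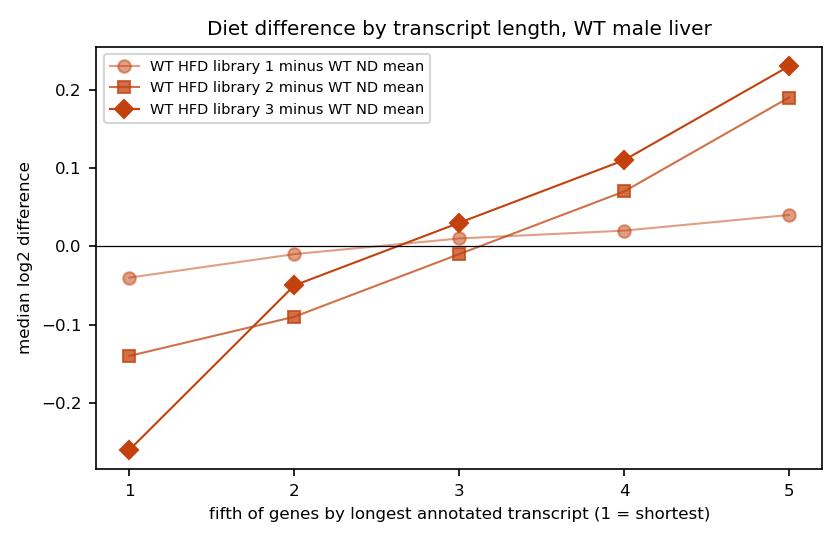
Median log2 difference of each WT HFD library from the mean of the 3 WT ND libraries (vertical axis) in 5 groups of about equal size of 13835 genes ordered by their longest annotated transcript, group 1 being the shortest (horizontal axis). All 3 lines rise with length, least in HFD library 1 (-0.04 to 0.04) and most in HFD library 3 (-0.26 to 0.23).

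Males labelled Cyp2b-null gave the same diet contrast in libraries that share no sample with the WT males. There 13 genes were called (0.0859%), 6 higher (0.0396%) and 7 lower (0.0462%), and 978 had an unadjusted p below 0.05 (6.46%). Of the 109 genes called in WT males, 88 had the same sign in labelled-null males, as did 8546 of all 15139 genes. Called in both were Csad, Cyp3a41a, Cyp3a44, Themis and Tuba8, which are 5 of 109 and 5 of 13. Csad had 57.5, 50.7 and 70.0 CPM in labelled-null HFD libraries, against 409 and 518 CPM in labelled-null ND libraries 2 and 3 (log2 difference -2.97, adjusted p = 2.77e-05). Cyp3a11 had 371, 766 and 577 CPM there on HFD, against 3463 and 1708 CPM on ND, a difference of -2.18 without a call (adjusted p = 0.108). The labelled-null libraries held Cyp2b9 at 1.85 to 7.65 CPM on HFD and at 1.57 and 3.89 CPM on ND, levels above those of the WT ND libraries, so this gene as counted does not bear out their label.

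The clock and PPARα lists had lower medians in labelled-null males, but the test of the difference was not passed by any of the 3 members given here. The clock list had a median of 0.00 there, against 0.68 in WT males, and the PPARα list 0.24, against 0.52. Wee1 had 24.01, 34.7 and 25.3 CPM in labelled-null HFD libraries, against 31.9 and 23.9 CPM in labelled-null ND libraries. For Wee1 the diet effect in WT minus that in labelled-null males was 2.31 (adjusted p = 0.181), for Arntl -3.19 (adjusted p = 0.249) and for Ppara 0.98 (adjusted p = 0.397). Across all genes 1 difference was called (0.00661%), and 1168 (7.72%) had an unadjusted p below 0.05. That gene was Slc45a3, a sugar transporter family member.

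WT females gave the diet contrast with another extraction and library kit and 2005120 to 2661836 counts a library. Only Dbp (log2 difference 2.14, adjusted p = 0.0242) and Dock6 (-1.90, adjusted p = 0.0451) were called among 11830 genes (0.0169%, or 0.00845% each way), and 412 had an unadjusted p below 0.05 (3.48%). Of the 109 genes called in WT males, 88 were tested in females and 69 had the same sign, as did 5767 of 11138 genes tested in both. Of those 88, 18 had an unadjusted p below 0.05 in females, and all 18 had the direction seen in males. They include the oxidation genes Ppara, Cpt1a and Vnn1, the clock genes Arntl and Wee1, and Gpcpd1, Chka, Nampt, Fabp2, Nceh1 and Cyp3a11. Cyp3a11 had 899, 1085 and 1207 CPM in WT female HFD libraries, against 2162, 2254 and 2823 CPM in WT female ND libraries (log2 difference -1.18 ± 0.23, adjusted p = 0.208). Arntl had 1.55, 4.58 and 2.47 CPM on HFD in females, against 7.41, 19.0 and 9.66 CPM on ND, and the female groups did not overlap. The diet effect in WT females minus that in WT males was called for no gene of 13415 by edgeR (0%), with 897 (6.69%) at an unadjusted p below 0.05 and 9 called by DESeq2; sex and kit cannot be told apart here.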

How the data were processed

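Liver RNA was sequenced in 24 libraries. The 8 groups of 3, by sex, genotype and diet, follow the titles, which the genotype field contradicts for 6 female libraries. Per the labels' protocols, the library kit was TruSeq Total RNA in males but NEB Next Ultra RNA in females. The authors deposited raw counts, 1 table for each sex with a gene symbol per row. GRCm38.p5 is the build, and FastQC, Trimmomatic, GSNAP, Subread and edgeR the tools, per the submitters' processing notes. Settings and the use of strand were not given in the sources used here, so reads of overlapping genes on opposite strands cannot be told apart. Among the male counts, 1806 symbols stood in more than 1 row and were summed, and 25 symbols turned into dates (at most 0.16% of a library) were not tested.

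The diet effect was tested with edgeR 4.0.16 (R 4.3.3) on the counts: TMM scaling, filterByExpr by group with a minimum count of 10, and robust quasi-likelihood fits with 1 term per group over 11 male libraries, all but ND library 1 of the males labelled Cyp2b-null. A gene is called at an adjusted p below 0.05 (Benjamini-Hochberg). The standard error is the log2 difference divided by the root of the F value, and CPM use TMM library sizes. The script was tested on simulated data. WT females were fitted in 12 female libraries, and the sexes jointly in 23. DESeq2 1.42.0 was an alternative, as were DESeq2's size factors, no filter, the first of duplicated rows, the 6 WT libraries alone, the left-out library added, a replicate block, and leaving out each library. Same-numbered HFD and ND libraries deviated together from their group means (correlations 0.106, 0.12 and 0.101, little over the minimum of 0.1 set for pairing). Other pairs had -0.078 to -0.021, which is not separate evidence, because deviations from a group mean sum to 0. The numbers in the titles were taken as pairs only in the replicate block, whose terms covered the WT libraries alone. The main fit, with its p-values, standard errors and intervals, has no term for pairs. No 2 of the 6 WT libraries agreed within sampling noise (the smallest ratio of chi-square to its degrees of freedom was 10.87).

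Named genes are Cyp2b9, Cyp2b10 and Cyp2b13, the 14 largest called rises and 14 largest called falls (average log2 CPM of at least 1, no overlap between diets, no clone or predicted name), up to 5 called members of each of 42 gene lists and, for a list without a call, the member with the smallest p. The comparison, its members and these lists were chosen with earlier results of these data known. Coordinates are from GENCODE M21 (GRCm38), promoters from RefSeq (GRCm38.p6). Depth limits low genes: before TMM scaling, 1 CPM is 9.67 to 20.2 counts in a WT male library, and intervals cover the spread of 3 libraries a group.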

Additional observations from a re-analysis of the deposited data

Results flagged for a closer look

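The diet effect on Slc45a3 differed between the genotype labels in males. WT males had 25.3, 23.4 and 26.4 CPM on HFD, against 48.5, 43.9 and 33.8 CPM on ND, a log2 difference of -0.75 that was not called (adjusted p = 0.0622). Labelled-null males had 41.7, 57.3 and 48.8 CPM on HFD, against 15.7 and 18.1 CPM on ND libraries 2 and 3, a log2 difference of 1.54 (adjusted p = 0.0109). The diet effect in WT males minus that in labelled-null males was -2.29 (adjusted p = 0.00764, edgeR's quasi-likelihood test, Benjamini-Hochberg adjustment over 15139 genes). It was the only gene called for this difference, and no call was made when ND library 1 of the labelled-null males was added.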

How the results depend on the processing

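For WT males the 109 calls became 964 without a filter on low counts, 540 by DESeq2, 21 in the 6 WT libraries alone and 0 with ND library 1 of the labelled-null males in the fit (966 at an unadjusted p below 0.05); DESeq2's size factors gave 103 and the first of duplicated symbols 109. Leaving out 1 of the 6 libraries gave 2 to 573 calls. In every one of these settings all of the 109 genes that were tested kept their direction. The difference of WT and labelled-null males had 1 call, against 353 without a filter, 57 by DESeq2, 0 with the added library and 1 to 5 when a library was left out. The difference of females and males had 0 calls, against 82 without a filter, 9 by DESeq2, 1 with the added library and 0 to 2 when a library was left out. WT females had 2 calls, against 1 with DESeq2's size factors, 38 without a filter, 23 by DESeq2 and 0 to 4 when a library was left out. Beyond the number of genes or libraries in a fit, the cause of these changes was not tested.

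With the replicate block, the pairing by title number, calls in WT males were 167 in 11 libraries (102 of the 109 among them) and 245 in the 6 WT libraries alone, and WT females had 5. Among the named genes the block in 11 libraries added Elovl3, Cyp2c55 and Rdh9 (log2 difference 1.01, adjusted p = 0.0163) and ended the call of Rsad2. The block in the 6 WT libraries added 6 (Cyp2b10, Cfd, Elovl3, Fgf21, Rdh9 and Atp5g1) and ended 5 (Osbpl3, Mfsd2a, Slc22a27, Rsad2 and Ccne2).

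Of the named genes, Csf3r (0.36) ranged from -0.29 without HFD library 3 to 0.70 without HFD library 1. Cela1 (-0.14) ranged from -0.60 without HFD library 1 to 0.15 without HFD library 3, and was 0.05 without ND library 2. With 3 libraries a group, a gene that misses the threshold is not shown to be equal between the diets.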

Other observations

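Further called genes are known for hormone, energy and mitochondrial roles. Dio1, which activates thyroid hormone, had 201, 169 and 125 CPM on HFD, against 71.4, 75.6 and 77.6 CPM on ND (log2 difference 1.14, adjusted p = 0.0236). Nampt, which makes the precursor of NAD, averaged 131 ± 37.5 CPM on HFD and 56.8 ± 12.3 CPM on ND (adjusted p = 0.048). Bnip3, a mitophagy receptor, averaged 214 ± 45.8 CPM on HFD and 111 ± 16.2 CPM on ND (adjusted p = 0.0364). Nceh1, a cholesterol ester hydrolase, averaged 57.6 ± 6.97 CPM on HFD and 25.6 ± 3.91 CPM on ND (adjusted p = 0.0288). Nox4, an oxidase that makes hydrogen peroxide, was among the least variable, at 90.8, 85.7 and 87.5 CPM on HFD and 49.3, 47.4 and 48.9 CPM on ND (adjusted p = 0.0236). The monocarboxylate transporter genes Slc16a7 and Slc16a12 rose, with log2 differences of 1.07 and 0.88. Ddc, the decarboxylase of aromatic amino acids, fell to 48.8 ± 18.9 CPM on HFD, against 119 ± 15.6 CPM on ND (adjusted p = 0.0327). These genes were picked out after their values were seen.

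Several lists had no call by edgeR. Over all genes, 9.64% were higher and 7.54% lower at an unadjusted p below 0.05. Called higher were 2.11% of all genes by DESeq2 and 0.436% by edgeR. Immediate early genes had the lowest median, -0.55 over 22 tested, with 1 lower at an unadjusted p below 0.05 and no call by DESeq2; Myc had 2.13, 7.46 and 4.71 CPM on HFD, against 3.93, 45.5 and 53.9 CPM on ND, and its groups overlapped at ND library 1. Stress response genes of the endoplasmic reticulum had a median of -0.28 over 31 tested, with 1 higher and 4 lower at an unadjusted p below 0.05 and 1 called higher by DESeq2. Glucocorticoid receptor targets had a median of 0.40 over 18 tested, with 4 higher and 2 lower at that level and 1 called higher by DESeq2; Mt2, a metallothionein, had 1.29, 1.67 and 7.13 CPM on HFD, against 1.13, 0.546 and 0.604 CPM on ND. Glycolysis, gluconeogenesis and glycogen genes had a median of -0.12 over 35 tested, with 3 higher and 4 lower and 1 called higher by DESeq2; Gys2, the liver glycogen synthase, averaged 366 ± 72.7 CPM on HFD and 193 ± 33.1 CPM on ND (adjusted p = 0.0622). Acute phase proteins had a median of -0.22 over 26 tested, with 3 higher and 4 lower and no call by DESeq2. In the cell cycle list 1 of 25 genes was called, Ccne2, a cyclin, with 1.67, 1.96 and 1.97 CPM on HFD, against 0.174, 0.655 and 0.518 CPM on ND (log2 difference 2.07, adjusted p = 0.0384), and 19 members lay below 0.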
